A study of Homo sapiens with 4 samples.

Results

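Ion channels, pumps and ATP-binding cassette (ABC) transporters were examined in HT29 colorectal cancer cells sorted into CD26+ and CD26− cells. Their members were the probe sets to which the authors' table of 1 CD26+ against 1 CD26− array gave a single gene symbol beginning with a name of these families, such as KCN for potassium channels, AQP for aquaporins or ABC for ABC proteins. This gave 125 probe sets of 101 genes, out of 11430 listed probe sets, of which 8414 carried a single symbol, and out of 54675 probe sets on the array. Members were thus chosen by the signals of CD26+ replicate 1 and CD26− replicate 1, called the chosen pair below, since 11429 of the 11430 probe sets in the table have signals 2-fold or more apart in it. All 125 members did, 66 higher and 59 lower in CD26+ replicate 1, and these directions follow from the choice and are no finding. Probe sets beyond 2-fold that the table leaves out were not named here. Just inside that threshold lay KCNJ3 at 2.01-fold and KCNC4 at 2.06-fold higher in CD26+ replicate 1, and KCNMB1 at 2.03-fold and ABCD3 at 2.05-fold lower. The nearest probe sets under it, 243223_at and 1569206_at, were 2.00-fold higher and 2.00-fold lower, with 1.9999 and 1.99986 before rounding.

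Ion channels let selected ions flow across a membrane down their gradient, pumps use ATP to move ions against it, and ABC transporters use ATP to move lipids, metabolites and drugs. In the colonic epithelium the sodium pump on the basolateral side sets the gradients, the epithelial sodium channel ENaC takes up sodium and water follows, and the chloride channel CFTR secretes fluid while basolateral potassium channels keep the membrane voltage that drives chloride out. Calcium pumps clear calcium from the cytosol, and the vacuolar proton pump acidifies lysosomes and other compartments.

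HT29 is an established line from a human colorectal adenocarcinoma, grown in DMEM with fetal bovine serum. Cells were stained for CD26, the surface peptidase encoded by DPP4, and the brightest and dimmest were collected by fluorescence-activated cell sorting. Total RNA of each fraction was hybridised to U133 Plus 2.0 arrays of Affymetrix, 2 for CD26+ and 2 for CD26− cells. No treatment or genetic change separated the groups, and both came from the same line. According to the labels the replicates are biological, without a word on what separates them, so the errors measure the spread between these samples only. In such bulk RNA, fewer cells of a type and less RNA per cell cannot be told apart.

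The sorted marker did not follow the labels on every array. DPP4 probe set 203717_at read 1952 and 6465 in CD26− cells and 6649 and 2513 in CD26+ cells, in arbitrary units of signal with replicate 1 first in each group, as in all values that follow. Its other probe set, 203716_s_at, read 203 and 867 against 516 and 549. The array labelled CD26− replicate 2 thus lay beside CD26+ replicate 1 at the former and was the highest at the latter, with log2 differences of 0.46 and -0.11, and its group is used below as labelled. CD26+ replicate 2 stood apart from the rest in another way. Its median signal was 270.3, against 76.1 to 96.7 on the others, its correlation with them across probe sets was 0.304 to 0.333, against 0.904 to 0.918 among the other 3, and its hybridisation controls had a median of 79202, against 4399 to 5409. Of 13 intestinal epithelial markers, 7 were among the listed genes, with a summed signal of 62654 and 132738 in CD26− cells and 57254 and 2881 in CD26+ cells. In the chosen pair CDX1, LGALS4 and VIL1 were higher and CDH1, CDH17, KRT19 and KRT20 lower, so this sum hides opposite directions. The listed immune markers, CD14, LYZ and ITGAM (3 of 7), summed to 6806, 4508, 2495 and 305. There CD14 and LYZ had both CD26+ arrays below both CD26− arrays, and ITGAM had both above. The listed fibroblast markers, COL1A1 and DCN (2 of 6), summed to 56.8, 391, 409 and 1362. The endothelial marker CLDN5 (1 of 5) read 14.4, 26.4, 39.6 and 308, while 0 of 6 neuronal markers were listed. The part of these shifts in the results below was not tested. The main differences are therefore given over all 4 arrays and again without CD26+ replicate 2, after normalizing the other 3 on their own.

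None of the members passed the test. Signals were quantile normalized, log2(signal + 16) was taken, and CD26+ minus CD26− was fitted with limma over all 54613 probe sets other than controls. At an adjusted p under 0.05 the fit called 0 of 125 members and 0.0% of all probe sets, and at an unadjusted p under 0.05 it gave 4 members, KCNA2, KCNIP3, KCNK7 and TRPV5 (3.2%), beside 1.56% of all probe sets and 3.15% of the listed ones with 1 symbol. The methods' t-test, unadjusted, gave 8 members (6.4%), against 3.38% of all and 4.74% of listed probe sets, and 0 after Benjamini-Hochberg adjustment. Adjusted p-values of the members in limma were 0.79 or more and the standard errors of their log2 differences from 0.80 to 2.27. An exact permutation test of 2 arrays against 2 cannot give a two-sided p below 0.33. Without CD26+ replicate 1, which left CD26+ replicate 2 as the only CD26+ array, the fit called 23148 probe sets and 56 members, and with any other single array left out it called 0 members.

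In the absence of calls the members were described by the order of the 4 arrays on the normalized scale. Both CD26+ arrays lay above both CD26− arrays for 39 members (31.2%), against 20.5% of all probe sets, and below both for 18 (14.4%), against 16.2%. Because the rule fixed the order of 1 CD26+ and 1 CD26− array, the listed probe sets with 1 symbol are the closer background. Among the 66 members higher in the chosen pair, 59.1% had both CD26+ arrays above both CD26− arrays, against 41.2% of listed probe sets higher in that pair. Among the 59 lower in the pair, 30.5% had both CD26+ arrays below, against 47.8% of the listed. The median log2 difference was 0.30 over the members and 0.11 over all probe sets, and 0.26 and 0.02 without CD26+ replicate 2.

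Set against the array labelled CD26− replicate 2, CD26+ replicate 1 kept the side it had in the chosen pair for 53 of the 66 members higher there (80.3%, against 79.2% of listed probe sets) and 39 of the 59 lower there (66.1%, against 75.0%). The arrays that the rule did not use gave a different picture. CD26+ replicate 2 was at least 2-fold above the array labelled CD26− replicate 2 for 57 members (45.6%), against 36.3% of all and 32.5% of listed probe sets, and at least 2-fold below it for 41 (32.8%), against 32.1% and 40.5%. On the signals as deposited the split was 76 above and 24 below. On that scale the median over all probe sets was 270.3 on CD26+ replicate 2, against 96.7 on the array labelled CD26− replicate 2. Shares over all probe sets were not counted there, so this split cannot be read as a trait of the members. On normalized values CD26+ replicate 2 lay above that array for 41 of the 66 members higher in the pair (62.1%, against 51.2% of the listed). It lay below for 25 of the 59 lower in the pair (42.4%, against 59.8%). The CD26− arrays themselves were at least 2-fold apart for 53 members (42.4%), against 24.2% of all and 33.2% of listed probe sets.

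How a member read on CD26+ replicate 2 went with its level on the other arrays. The 37 probe sets above the array median on the other 3 arrays had median signals of 909.6 and 840.2 in CD26− cells and 1008 and 264 in CD26+ cells. By deposited signal, 27 of them were lower on CD26+ replicate 2 (array median 270.3) than on the array labelled CD26− replicate 2 (array median 96.7). The 37 probe sets below the median on those arrays had median signals of 27.5, 28.9, 33.4 and 444, and 1 of 37 was lower in that comparison. Their median log2 differences were -1.09 and 1.07 over all 4 arrays and -0.36 and 0.26 without CD26+ replicate 2. CD26+ replicate 2 thus raised the 4-array difference of the dim members and lowered that of the bright ones in the median. The split into dim and bright used the other 3 arrays, with which CD26+ replicate 2 correlated weakly, so this order follows in part from the split. Shares over all probe sets were not counted, so it cannot be read as a trait of the members.

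**Figure D1:**
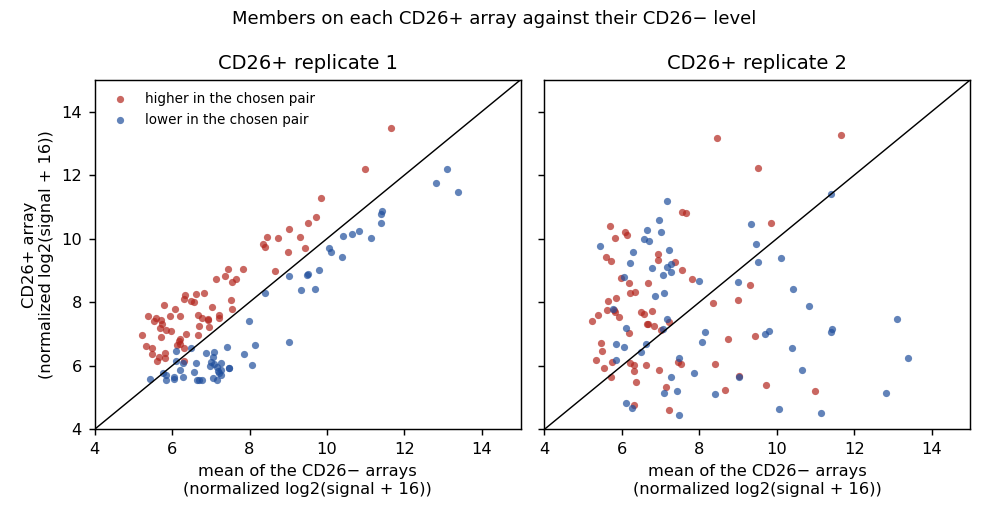
Normalized log2(signal + 16) of the 125 member probe sets on each CD26+ array (vertical axis, one panel per array) against their mean on the CD26− arrays (horizontal axis), coloured by their direction in the chosen pair; the line marks equal levels. On CD26+ replicate 2, 31 of the 37 members that were dim on the other 3 arrays lie above the line, and 28 of the 37 that were bright there lie below. The split by the other 3 arrays favours this order, and shares over all probe sets were not counted.

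By family, both CD26+ arrays lay above both CD26− arrays for 12 of 30 potassium channel probe sets, 5 of 9 calcium channel and 3 of 7 sodium channel probe sets, and below for 2, 0 and 0, beside 20.5% above and 16.2% below over all probe sets. In the chosen pair 20, 7 and 5 of these were already higher. For ABC proteins 2 of 16 lay above and 4 below, with 13 of the 16 already lower in the chosen pair. For the pumps 9 of 29 lay above and 7 below, with 12 higher and 17 lower in the pair. The order within a family thus followed in part from the choice, and differences between families were not tested. Medians of the log2 differences ran from -0.78 for ABC proteins to 1.28 for sodium channels, where 0 of 7 probe sets were above the array median on the other 3 arrays.

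**Figure D2:**
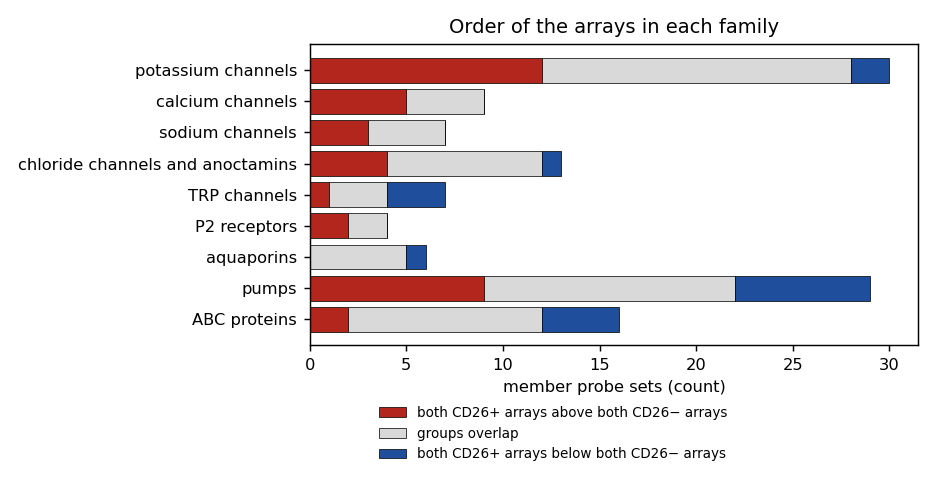
Number of member probe sets in each family (horizontal axis) with both CD26+ arrays above both CD26− arrays, with overlapping groups, or with both CD26+ arrays below. Potassium channels have 12 above and 2 below, ABC proteins 2 and 4, and 68 of the 125 members in all overlap.

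The brightest member was AQP3, an aquaglyceroporin that passes water and glycerol through the basolateral membrane of colonocytes. Its probe set 39248_at, placed by the authors' table on chromosome 9 from 33441153 to 33441590 in a genome build not given in the sources used here, read 21274 and 5226 in CD26− cells and 3139.7 and 131 in CD26+ cells. Both CD26+ arrays lay below both CD26− arrays, with a log2 difference of -4.53 (SE 1.89, n = 2 a group) and of -1.88 without CD26+ replicate 2. The probe sets 203747_at and 39249_at of the same gene read 899 and 233 against 55.0 and 577, and 1059 and 341 against 227 and 1204. All 3 were lower on CD26+ replicate 1 than on either CD26− array, and on CD26+ replicate 2 only 39248_at was. The water channel AQP5 went the other way on CD26+ replicate 1, at 411 and 314 in CD26− cells and 1008 and 207 in CD26+ cells, while AQP6 (30.6, 149, 81.4 and 100.04) and AQP7 (12.9, 89.0, 45.8 and 111) were dim with overlapping groups. AQP7 aligned to 5 places on chromosome 9, so that copies of the gene could share its signal.

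ATP1B3, a beta subunit of the sodium pump, was nearly as bright as AQP3, at 20170.1 and 3963 in CD26− cells and 5501 and 323 in CD26+ cells. Its probe set 208836_at also aligned to chromosome 2, besides the gene on chromosome 3. The CD26− arrays were 5.09-fold apart and enclosed CD26+ replicate 1, and the log2 difference was -3.28 (SE 1.81) and -0.85 without CD26+ replicate 2. The catalytic subunit ATP1A4, known from sperm, was dim and overlapped, at 41.5 and 9.32 against 17.6 and 126.

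CFTR, the chloride channel opened by cyclic AMP, was the member with the widest gap between the CD26+ arrays, 93.9-fold. Probe set 205043_at (chromosome 7, 117120016 to 117308715) read 1629 and 2801 in CD26− cells and 5501 and 58.6 in CD26+ cells. CD26+ replicate 1 had the highest signal and CD26+ replicate 2 the lowest, and the log2 difference was -2.27 (SE 2.27) over all 4 arrays and 1.27 without CD26+ replicate 2. KCNQ1, the basolateral potassium channel that sustains chloride secretion, had the same order of arrays at 204487_s_at, with 645 and 1025 against 1724 and 68.2, and a difference of -1.69 (SE 1.80) and of 1.08 without CD26+ replicate 2. Its dimmer probe set 211217_s_at read 28.3 and 127 against 209 and 279.5, the highest values being those of CD26+ cells, with overlap after normalization. KCNE3, the beta subunit that holds KCNQ1 open in crypt cells, read 197 and 65.1 against 432 and 119.7, with log2 differences of 0.12 and 1.89. CFTR, KCNQ1 at both probe sets and KCNE3 were thus higher on CD26+ replicate 1 than on either CD26− array, which was the only CD26+ array to show it for CFTR, KCNE3 and the brighter KCNQ1 probe set.

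Other members of the secretory pathway did not share this order. ANO1, a calcium-activated chloride channel, read 6787 and 389 in CD26− cells and 1096 and 99.5 in CD26+ cells at 218804_at, and 208 and 15.7 against 39.8 and 477 at 1555269_a_at. The CD26− arrays were 17.4-fold and 13.3-fold apart, more than any distance between CD26+ replicate 1 and either of them. P2RY2, the nucleotide receptor that raises calcium and triggers chloride secretion, read 837 and 259.4 against 348 and 85.7, and its groups overlapped. KCNK5, a background potassium channel of the basolateral membrane, was lower on both CD26+ arrays, at 909.6 and 840.2 against 418 and 248, with a log2 difference of -1.75 (SE 0.99) and of -0.94 without CD26+ replicate 2. BEST4, an anion channel of a small set of absorptive colonocytes, overlapped at 80.3 and 169 against 168 and 115. Of the 28 genes on a list for chloride and fluid secretion, 11 were listed by the authors and 8 were members. Of these 11, 6 were higher and 5 lower in the chosen pair, 0 and 2 without overlap, beside 20.5% and 16.2% of all probe sets. The fit called 0 of them, with a median log2 difference of -1.75, which was 0.48 without CD26+ replicate 2.

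**Figure D3:**
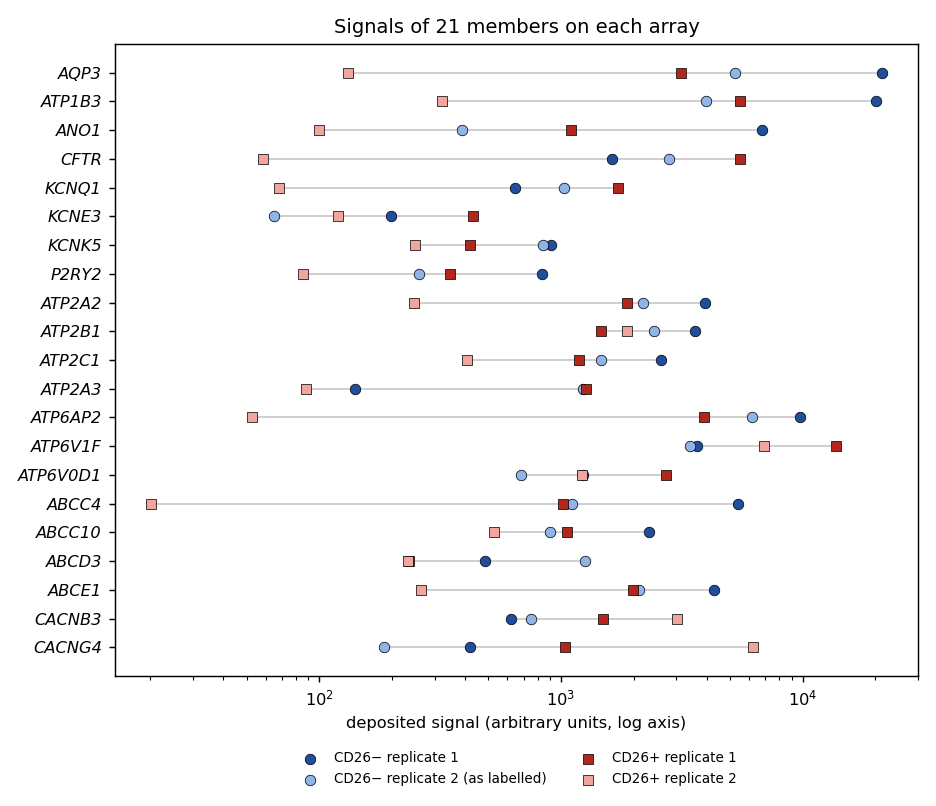
Deposited signal in arbitrary units on a log axis of 21 members on each of the 4 arrays (circles, CD26−; squares, CD26+), each gene at the probe set with the highest mean over the arrays other than CD26+ replicate 2. CFTR spans 58.6 to 5501 with a CD26+ array at either end, ATP6V1F keeps both CD26+ arrays on the right, and AQP3, ATP2C1 and ATP6AP2 keep both on the left.

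The remaining chloride channels were dim or varied within a group. CLCN4, an endosomal chloride and proton exchanger, was higher on both CD26+ arrays at both probe sets, with 27.5 and 42.9 against 106 and 565 and with 61.7 and 87.1 against 137 and 253. Its log2 differences were 1.87 and 0.46, and 1.40 and 0.92 without CD26+ replicate 2. CLCN1, the chloride channel of skeletal muscle, read 72.4 and 191 against 299.6 and 1428, and BEST1, an anion channel best known from the retinal pigment epithelium, 21.4 and 2.98 against 66.4 and 309.5. CLIC4, of the chloride intracellular channel family, was highest on CD26+ replicate 1 at both probe sets, 71.2 and 37.4 against 204 and 112 at 221881_s_at and 79.7 and 13.5 against 174 and 31.5 at 201559_s_at, and both overlapped after normalization. The first of these also aligned to chromosome 9, besides the gene on chromosome 1. CLIC3 overlapped, at 150.3 and 659 against 403 and 60.1, and the anoctamin ANO3 had both CD26+ arrays below both CD26− arrays, at 156 and 74.6 against 46.8 and 56.3.

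The epithelial sodium channel was represented by SCNN1A, its alpha subunit, the entry step of sodium absorption. It read 17.2 and 37.5 in CD26− cells and 107 and 334 in CD26+ cells, and each CD26+ array was at least 2-fold above each CD26− array on the normalized scale, with a log2 difference of 1.60 (SE 0.81) and of 1.67 without CD26+ replicate 2. On CD26− arrays it lay below the array median. The voltage-gated sodium channel genes, which carry action potentials in nerve and muscle, were dim as a family, with signals of 3.75 to 161 on the arrays other than CD26+ replicate 2. SCN9A, the pore subunit of pain-sensing neurons, read 28.5 and 3.75 against 107 and 349, a log2 difference of 2.19 and of 2.11 without CD26+ replicate 2. SCN11A (12.6 and 21.2 against 30.5 and 383) was also higher on both CD26+ arrays, and the groups overlapped for SCN2B, SCN8A and SCN10A. On the list of 20 genes for sodium and water absorption, 6 were listed by the authors and 3, AQP3, AQP7 and SCNN1A, were members. Of the 6, 4 were higher and 2 lower in the chosen pair, 1 and 1 without overlap, beside 20.5% and 16.2% of all probe sets. The fit called 0 of them, with a median log2 difference of -0.16 and of 0.46 without CD26+ replicate 2.

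Potassium channels formed the largest family, with 30 probe sets of 24 genes. Those named first here, 3 of them with an unadjusted p under 0.05 in limma, read under the array median in CD26− cells. KCNA2, a delayed rectifier of neurons, read 18.5 and 19.7 against 96.0 and 750.1, with a log2 difference of 2.64 (SE 0.98) and of 1.77 without CD26+ replicate 2. KCNIP3, a calcium sensor that binds Kv4 channels and also acts as a repressor of transcription, read 15.04 and 54.2 against 129 and 1077 at 1555694_a_at, with differences of 2.91 (SE 1.12) and 1.79. At its other probe set, 228269_x_at, KCNIP3 read 45.0 and 15.96 against 16.1 and 611, so that only CD26+ replicate 2 was high. KCNK7 is a member of the background channel family not known to carry current by itself. At 224055_x_at, whose suffix marks probes shared between transcripts or genes, it read 25.8 and 16.7 against 148 and 384. Its differences were 2.05 (SE 0.82) and 2.28. KCNA6 (22.9 and 22.6 against 75.9 and 466), another voltage-gated pore subunit, also had each CD26+ array at least 2-fold above each CD26− array.

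Few potassium channel members were bright. KCNH2, the hERG channel of cardiac repolarisation that is also made by many tumour lines, read 84.7 and 198 against 322 and 1409 at 205262_at and 99.99 and 573 against 859 and 427 at 210036_s_at. Both were higher on CD26+ replicate 1 than on either CD26− array, and only the first kept both CD26+ arrays above. KCNJ3, an inward rectifier opened by G proteins, overlapped at 275 and 1128 against 1037 and 558. The beta subunit KCNAB2 read 56.3 and 184 against 348 and 740 and kept both CD26+ arrays above, and the family's only members with both CD26+ arrays below were KCNK5 and the beta subunit KCNAB1 at 210078_s_at (46.0 and 28.9 against 16.1 and 26.9). Of the other members, KCNA10, KCNAB3, KCNC4, KCNH7 and KCNMB2 had both CD26+ arrays above (KCNMB2 not on the signals as deposited), and KCNE2, KCNH4, KCNMB1, KCNN1, KCNN2 and KCNRG overlapped. The calcium-activated channel KCNN1 showed the widest split between the CD26+ arrays among these, at 72.6 and 94.7 against 24.7 and 1681.

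Among the calcium channels, 2 accessory subunits and the pore subunit CACNA1D were above the array median on the arrays other than CD26+ replicate 2. CACNB3, a beta subunit that brings the pore to the membrane, read 623 and 752 against 1496 and 3018, a log2 difference of 1.85 (SE 0.95) and of 1.13 without CD26+ replicate 2. CACNG4, a gamma subunit that also serves AMPA receptors in the brain, read 419 and 185 against 1040.5 and 6242 (chromosome 17, 65027201 to 65029514), with differences of 3.17 (SE 1.28) and 1.95. Both CD26+ arrays lay above both CD26− arrays for these genes and for the pore subunit CACNA1E (14.4 and 21.3 against 34.7 and 444). The same held for CACNB1 at both of its member probe sets. These read 29.2 and 78.0 against 159 and 356, and 17.4 and 28.2 against 39.3 and 995. The CACNA1E probe set aligned to the minus strand, and whether this is the strand of the gene was not checked. CACNA1D, an L-type pore subunit, was higher on CD26+ replicate 1 than on either CD26− array but overlapped, at 335 and 584 against 703 and 446. The probe sets of CACNA2D4 and of CACNG6 overlapped, and both probe sets of CACNA2D4 pointed in opposite directions in the chosen pair.

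TRP channels, cation channels that respond to stretch, heat, lipids or calcium stores, showed members at both ends. TRPM7 is a magnesium and calcium channel fused to a kinase and needed by most cells. Its probe set 237884_x_at (chromosome 15, 50911758 to 50912243) read 142 and 89.9 against 23.5 and 16.5. The suffix _x_at marks probes shared between transcripts or genes. Both CD26+ arrays were at least 2-fold below both CD26− arrays, with a log2 difference of -2.29 (SE 0.94) and of -1.61 without CD26+ replicate 2. TRPC1, which takes part in calcium entry after store release, read 124 and 297 against 25.8 and 196 at 205803_s_at and 89.1 and 282 against 37.8 and 92.5 at 205802_at. CD26+ replicate 1 was the lowest array at both probe sets, with differences of -1.69 and -1.81 and of -2.23 and -1.63 without CD26+ replicate 2. The order with both CD26+ arrays below held for TRPC1 after quantile normalization and not on the signals as deposited, where CD26+ replicate 2 lay between the CD26− arrays.

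TRPV5, the calcium entry channel of the renal tubule, had one of the largest gaps on the higher side, at 16.9 and 14.7 against 102 and 788, with a log2 difference of 2.87 (SE 0.99) and of 1.99 without CD26+ replicate 2. Its intestinal relative TRPV6 overlapped at both probe sets (38.8 and 194 against 112 and 306, and 185 and 8.95 against 28.7 and 185). These probe sets aligned to opposite strands, so that they need not read the same transcript. TRPV4, an osmosensitive channel, also overlapped (83.0 and 102 against 21.9 and 653). The ATP-gated channel P2RX6 was higher on both CD26+ arrays, at 13.3 and 117 against 165.5 and 372. P2RX2, of the same class, could not be given a direction, since 224557_x_at read 27.5 and 10.7 against 77.7 and 1178 while 221356_x_at read 90.5 and 78.0 against 14.5 and 325. CD26+ replicate 1 was the second highest array at the former and the lowest at the latter.

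Calcium pumps were lower in the chosen pair for 6 of 9 probe sets and higher for 3. Both CD26+ arrays lay above both CD26− arrays for 0 of the 9 and below for 3, beside 20.5% and 16.2% of all probe sets. ATP2A2, the SERCA2 pump that refills the endoplasmic reticulum, read 3939 and 2177 in CD26− cells and 1877 and 246 in CD26+ cells. Its log2 difference was -2.46 (SE 1.40) and -0.63 without CD26+ replicate 2, and the groups overlapped once each array was centred on its median instead. ATP2C1, the Golgi pump for calcium and manganese, was lower on both CD26+ arrays at both probe sets, with 2602 and 1464 against 1184 and 409 and with 1330.5 and 1448 against 607 and 169. The differences were -1.77 (SE 1.09) and -2.40 (SE 1.17), and -0.65 and -1.12 without CD26+ replicate 2.

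ATP2B1, the common plasma membrane calcium pump, read 3599.75 and 2432 against 1466 and 1869.6. The signals of both CD26+ arrays were below those of both CD26− arrays as deposited and when centred on the median, and overlapped after quantile normalization, with a log2 difference of -0.47 (SE 0.86) and of -1.0 without CD26+ replicate 2. ATP2A3, the SERCA3 pump of differentiated epithelium, showed another pattern, at 141 and 1231 against 1269 and 88.0 in 213036_x_at and 67.1 and 858 against 788 and 113 in 207522_s_at. At both probe sets, as for DPP4 at 203717_at, the high arrays were CD26+ replicate 1 and that labelled CD26− replicate 2, and the other arrays were low. ATP2B4, ATP2C2 and the muscle pump ATP2A1 were dim and overlapped. Of 26 genes on a list for calcium and magnesium handling, 17 were listed and 10 were members. Of the 17, 7 were higher and 10 lower in the chosen pair, 1 (TRPV5) and 6 without overlap, beside 20.5% and 16.2% of all probe sets. The fit called 0 of them, with a median log2 difference of -0.47 and of -0.63 without CD26+ replicate 2.

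The vacuolar proton pump was the largest group of pump genes, with 15 probe sets of 11 genes, including the transcribed pseudogene ATP6AP1L. Both CD26+ arrays lay above both CD26− arrays for 6 probe sets and below for 4, beside 20.5% and 16.2% of all probe sets. In the chosen pair 6 of the 15 were already higher and 9 lower. ATP6V1F, a subunit of the central stalk of the cytosolic part, was the brightest member on the higher side, at 3670.3 and 3429.6 in CD26− cells and 13736 and 6888 in CD26+ cells. The CD26− arrays were 1.07-fold apart, and each CD26+ array was at least 2-fold above each of them after quantile normalization, with a log2 difference of 1.71 (SE 0.80) and of 1.78 without CD26+ replicate 2. With each array centred on its median the groups overlapped. The authors' table placed this probe set first on chromosome 12, while the gene lies on chromosome 7, where it also aligned. ATP6V0D1, a subunit that joins the membrane and cytosolic parts, read 1230.0 and 685 against 2707 and 1219.95, with differences of 1.03 (SE 0.87) and 1.57, and was without overlap after quantile normalization only.

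ATP6AP2, an accessory protein of the pump that also binds prorenin, was lower on both CD26+ arrays at both probe sets. It read 9736 and 6152 against 3922 and 52.8 at 201443_s_at and 1456 and 867 against 705 and 783 at 201444_s_at, with log2 differences of -4.37 (SE 2.17) and -0.61 (SE 0.83). Without CD26+ replicate 2 they were -1.06 and -0.59. ATP6V1H, a regulatory subunit of the cytosolic part, read 81.1 and 151 against 23.8 and 132, and ATP6V0A2, a membrane subunit of Golgi and endosomes, 186 and 232 against 50.5 and 243 at 217603_at. For both, CD26+ replicate 1 was the lowest array, and CD26+ replicate 2 was below the CD26− arrays after quantile normalization but not on the deposited signals. The other probe sets of ATP6V0A2, with 857 and 569 against 369 and 743 and with 1046 and 439 against 364 and 924, were also lowest on CD26+ replicate 1 and overlapped.

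The subunits with both CD26+ arrays above were otherwise dim forms made in few tissues. ATP6V1E2, the form of the testis, read 44.1 and 34.6 against 195 and 505, with a log2 difference of 1.94 (SE 0.81) and of 2.09 without CD26+ replicate 2, and ATP6V1G2, the form of the brain, 20.9 and 33.6 against 72.7 and 606. ATP6V1B1, the form of acid-secreting kidney cells, read 40.1 and 112 against 95.7 and 760 and lay above after normalization but not as deposited, and ATP6V1C2 read 19.0 and 8.76 against 45.9 and 156 at 1553989_a_at. ATP6V1G3 and the pseudogene ATP6AP1L overlapped, being low on CD26+ replicate 1 and high on CD26+ replicate 2. Of 28 genes on a list for the pump and lysosomal acidification, 11 were listed and 10 were members. Of these 11, 6 were higher and 5 lower in the chosen pair, 6 and 3 without overlap, beside 20.5% and 16.2% of all probe sets. The fit called 0 of them, with a median log2 difference of 1.04 and of 0.51 without CD26+ replicate 2. The phospholipid flippases ATP8A1 (21.1 and 54.7 against 58.4 and 496) and ATP8B3 (40.2 and 112 against 99.0 and 821) lay above after normalization, and CD26+ replicate 1 was close to the array labelled CD26− replicate 2 for both.

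ABC proteins were lower in the chosen pair for 13 of 16 probe sets. The brightest was ABCC4, which exports cyclic nucleotides and drugs, at 5409 and 1109 in CD26− cells and 1018 and 20.1 in CD26+ cells for 203196_at and 473 and 149 against 207 and 52.3 for 1554918_a_at. The log2 difference at 203196_at was -3.86 (SE 1.96) and -1.18 without CD26+ replicate 2. CD26+ replicate 1 was within 1.5-fold of the array labelled CD26− replicate 2 at both probe sets, and the order with both CD26+ arrays below was lost with each array centred on its median. ABCC10, another exporter of drugs, overlapped at 2310.3 and 899.9 against 1056 and 526, and so did ABCC6, mutated in pseudoxanthoma elasticum, at 345 and 1114 against 778 and 225. The latter aligned to 3 places on chromosome 16, so that near-identical copies could share its signal.

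ABCB1, the multidrug transporter P-glycoprotein, was dim and inconstant, at 94.7 and 5.05 against 42.2 and 34.4, with the CD26− arrays 18.8-fold apart. Of 14 genes on a list for drug efflux, these 4 were listed, 1 higher and 3 lower in the chosen pair, and 0 were called, with a median log2 difference of -1.13 and of -0.04 without CD26+ replicate 2. ABCD3, which imports fatty acids into peroxisomes, was lower on both CD26+ arrays, at 484 and 1253 against 236 and 233. The CD26+ arrays nearly coincided as deposited only, with normalized log2 values of 8.41 and 6.99. The log2 difference of ABCD3 was -1.99 (SE 0.96) and -1.55 without CD26+ replicate 2. ABCE1, a ribosome recycling factor that does not transport, read 4291 and 2108 against 1983 and 264. Its differences were -2.41 (SE 1.41) and -0.58, and its groups overlapped with each array centred on its median. The ABCE1 probe set also aligned to chromosome 7, besides the gene on chromosome 4. ABCB10, of the mitochondrial inner membrane, read 1692 and 669 against 781 and 25.6, and its first alignment in the table lay on chromosome 15, while the gene lies on chromosome 1. Of 18 genes on a list for lipid transport by ABC proteins, 2 were listed, ABCD3 and ABCD4, and both were lower in the chosen pair.

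The other ABC members were dim. ABCA9 (14.0 and 33.9 against 33.4 and 370.1) and ABCC8, the sulfonylurea receptor (12.9 and 8.45 against 48.6 and 126), had both CD26+ arrays above both CD26− arrays, the former after quantile normalization or median centring and not as deposited. ABCB9, a lysosomal peptide transporter, read 120.3 and 71.7 against 28.2 and 84.5 at 1555323_at. There both CD26+ arrays lay below after quantile normalization or median centring and not as deposited, and at 207321_s_at the groups overlapped. ABCB6, ABCB8, ABCC9 and ABCD4 overlapped. Of the 4 member transcripts grouped as without a protein role, which leaves out ATP6AP1L, ANO7L1 was higher on both CD26+ arrays (14.1 and 14.8 against 93.6 and 106). ABCC13, ATP1A1OS and KCNQ1OT1 overlapped. KCNQ1OT1, which is transcribed from within KCNQ1 on the opposite strand, read 195 and 169.6 against 94.3 and 586, unlike KCNQ1 itself.

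Genes with several member probe sets allowed a comparison within an array. As every member was 2-fold or more apart in the chosen pair, unchanged probe sets of these genes were left out beforehand. Agreement in that pair thus follows in part from the choice, and is given without a share over other listed genes. There were 22 such genes with 46 probe sets, and the direction in the chosen pair was the same across the probe sets of 16 genes and opposite for 6. Among the 6 were ATP6V1C2, CACNA2D4, KCNIP3, P2RX2 and TRPV6 (whose probe sets aligned to opposite strands). The direction of the group means was the same for 14 and opposite for 8. All member probe sets of ATP2C1, ATP6AP2 and TRPC1 had both CD26+ arrays below both CD26− arrays. Those of CACNB1 and CLCN4 had both above. Probe sets of these genes outside the members were not counted. The CACNB1 probe sets carry the suffix _x_at and were placed at the same coordinates, so they need not be independent readings. Among the 125 probe sets, 35 carried the suffix _s_at and 8 the suffix _x_at, which mark probes shared between transcripts or genes.

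**Figure D4:**
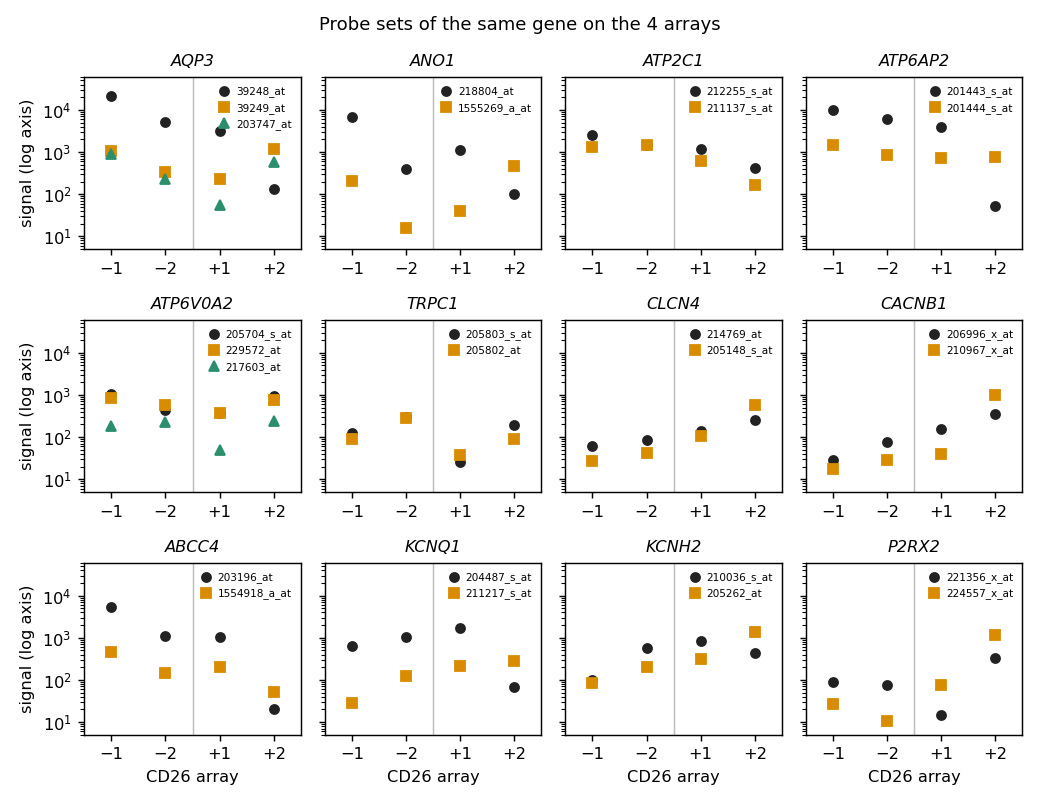
Deposited signal on a log axis of each member probe set (one symbol and colour per probe set) of 12 genes on the CD26− arrays (−1, −2) and the CD26+ arrays (+1, +2). All 3 probe sets of AQP3 and both of TRPC1 are lower at +1 than at −1 and −2, those of KCNQ1 have the same order at −1, −2 and +1 and part at +2, and those of P2RX2 run in opposite directions at +1.

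Counting only gaps of at least 2-fold in all 4 pairings of a CD26+ with a CD26− array left 14 probe sets on the higher side (11.2%, against 2.13% of all and 4.79% of listed probe sets), those of ATP6V1E2, ATP6V1F, ATP6V1G2, BEST1, CACNG4, CLCN4, KCNA2, KCNA6, KCNIP3, KCNK7, P2RX2, SCN9A, SCNN1A and TRPV5, and 4 on the lower (3.2%, against 2.52% and 5.9%), those of ATP6V0A2, ATP6V1H, TRPC1 and TRPM7. Their log2 differences ran from 1.60 to 3.17 and from -2.29 to -1.28. Among these probe sets, those of KCNK7, P2RX2 and TRPM7 carried the suffix _x_at. Of the 4, only TRPM7 kept both CD26+ arrays below on the signals as deposited, and of the 14, ATP6V1F overlapped with arrays centred on their medians. Of the 39 probe sets on the higher side without a minimum gap, 27 lay below the array median on both CD26− arrays, and of the 18 on the lower side 14 lay above it on both. Setting CD26+ replicate 2 aside, CD26+ replicate 1 was at least 2-fold above both CD26− arrays for 23 members (18.4%), against 12.6% of listed probe sets with 1 symbol and 4.53% of all, and at least 2-fold below both for 15 (12.0%), against 10.5% and 5.83%. With a pseudocount of 64 in place of 16 the counts were 8 and 3.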

How the data were processed

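The deposited table gives the intensity of each probe set on each array, a linear signal that the authors made with Genespring GX and Genomatix Genome Analyzer. Summarization, scaling and genome build: not given in the sources used here. Trimmed means per array lay between 499.93 and 499.96. A second table of the authors holds their comparison of 1 array pair, from which symbols and coordinates were taken and whose fold changes were not used. Its header numbers its CD26+ array 2, while its signals are those of CD26+ replicate 1. Entrez identifiers of 124 of 125 member probe sets matched RefSeq genes (GRCh38.p14).

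Signals were quantile normalized, log2(signal + 16) was taken, and 54613 probe sets (62 controls left out) entered limma 3.58.1 under R 4.3.3 (two-sided, lmFit, eBayes, Benjamini-Hochberg, threshold 0.05), with no replicate term. The pseudocount understates differences of dim probe sets. The script was tested on simulated data. The number of arrays limits the precision. Members, lists and tests were chosen with earlier results of these data known, including that CD26+ replicate 2 stands apart. Array order was counted on normalized values.

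For each gene the probe set was taken that had the highest mean over the arrays other than CD26+ replicate 2. Named were the 3 brightest genes of each role, the 10 highest and 10 lowest by the moderated statistic among those without overlap, members on 4 transport lists, and those nearest the threshold. Further members were named after their values were seen, and some members are counted but not reported by name here. Alternatives were values as deposited, median centring, pseudocounts of 1 and 64, bright probe sets only, probe sets without shared-probe suffixes, a trended and robust prior, another probe set for a gene, a replicate block, the methods' t-test, and each array left out.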

Additional observations from a re-analysis of the deposited data

How the results depend on the processing

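Over single arrays left out, the number of probe sets called ran from 0 to 23148 and of members called from 0 to 56, members with both CD26+ arrays above both CD26− arrays from 49 to 62, and those below from 29 to 42, fewer arrays making it easier not to overlap. Without CD26+ replicate 1 these were 49.6% and 33.6%, against 47.5% and 40.2% of all probe sets, and without CD26+ replicate 2 42.4% and 31.2%, against 35.6% and 32.4%. The methods' t-test, unadjusted, gave 1847 probe sets and 8 members. The replicate block called 1 probe set and 0 members, and deviations of arrays with the same number correlated at 0.0372, so the numbers were not used to pair arrays. A gap of at least 2-fold in all pairings left 14 members higher and 4 lower, and without shared-probe suffixes 8 were lower. Between the arrays the rule did not use, at least 4-fold differences were 35 higher and 24 lower. At 2-fold the lower count was 24 on values as deposited, and 26 without shared-probe suffixes. Shares over all probe sets were not counted for these settings. With a pseudocount of 64, CD26+ replicate 1 was at least 2-fold above both CD26− arrays for 8 members and below for 3, a setting chosen after seeing the data. The DPP4 difference at 203717_at was 0.46, -0.49 with arrays centred on their medians, and from -0.44 to 1.36 with single arrays left out. The median over all probe sets was 0.63 as deposited and -0.06 centred, against 0.11.

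Of 72 named members, 20 changed sign without CD26+ replicate 2, 10 as deposited and 3 centred. The probe set with the highest mean over all 4 arrays was another for 4 of them and changed the sign of 3, ABCB9, CACNA2D4 and P2RX2. Causes were not tested.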
